A study of Mus musculus with 18 samples.

Results

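The stefin A genes are a family of small, closely related genes that lie side by side on mouse chromosome 16. They were followed in 18 RNA-seq libraries, 9 from the RAW264.7 line and 9 from mouse livers. Members were taken by symbol from the 21441 genes of each expression table, which gave the same 8 genes in both: Stfa1, Stfa2, Stfa2l1, Stfa3, Gm5483, Gm5416, BC100530 and BC117090. The members were chosen by their FPKM values in macrophages, where some of them were higher with LPS+MIC-1 than with LPS alone. All macrophage values of the 8 genes are therefore given as a description without a test, and tests of members were made in liver, whose libraries did not enter the choice.

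RAW264.7 is a mouse macrophage-like line made with a leukemia virus, a single line grown in culture. LPS is the outer membrane component of Gram-negative bacteria, and MIC-1 is moringa isothiocyanate-1, a plant electrophile that bears a sugar. There were 3 macrophage libraries of control cells, 3 of cells with LPS and 3 of cells with LPS and 10 µM MIC-1. The sample labels of the cultures repeat the doses of the mouse experiment, and the LPS concentration of the sequenced cultures is not given in the sources used here. Liver libraries came from C57BL/6 mice (male by the study's methods) in 3 groups of 3 libraries. By the study's methods gavage with MIC-1 (80 mg/kg, dissolved in DMSO) or with the DMSO vehicle went on for 3 days, and was followed by an intraperitoneal injection. Control mice had vehicle and saline, LPS mice 10 mg/kg LPS, and LPS+MIC-1 mice MIC-1 and the same LPS dose. The liver was collected 16 h after injection.

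Stefins are the cystatins without a signal peptide. They stay in the cytosol and block papain-like cysteine proteases, among them the cathepsins of the lysosome, by pushing a hairpin loop into the active-site cleft. Humans have a single stefin A gene, whereas the mouse family has been duplicated many times, and the mouse genes are known for high transcript levels in neutrophils and their bone marrow precursors.

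In the mm9 build used by the authors, 7 of the 8 members had a gene model in the GENCODE M1 annotation, and BC117090 had none. The 7 models lay within chr16:36156897-36455478, a stretch of 298.6 kb, with 4 genes on the plus strand and 3 on the minus strand. Stfa2l1 was at chr16:36156897-36162034, Gm5483 at chr16:36184298-36188197, Gm5416 at chr16:36210489-36217874 and Stfa1 at chr16:36277213-36285457, all on the plus strand. BC100530 at chr16:36359468-36367834, Stfa2 at chr16:36404037-36421006 and Stfa3 at chr16:36450623-36455478 were on the minus strand. Coding sequences of the 7 genes were alike, with 73.4% to 98.1% identical bases over the 21 pairs. The closest pairs were Stfa2 with Stfa2l1 (98.1%) and Stfa1 with BC100530 (98.0%), whereas Gm5483, Gm5416 and Stfa3, the members with the highest macrophage levels below, were 78.5% to 81.3% identical to each other.

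Identity decides how far reads can be assigned to a single gene. Of all 31-base words in the transcripts of Stfa3, 0% occurred in another gene, and for Gm5416 3.03% occurred in other members. Gm5483 shared 3.39% of its words with other members but 44.0% with 2010005H15Rik, a further stefin A gene of the same stretch. 2010005H15Rik was listed at 0 FPKM in 8 of the 9 macrophage libraries and at 0.327 FPKM in LPS+MIC-1 library 3. Stfa2l1 shared 43.2% of its words with Stfa2, and Stfa1 shared 54.0% with BC100530, so reads of these pairs may have been split between them. For this reason the summed level of the 8 genes is given beside the single values.

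The coding stretch around the hairpin loop is shown for the 7 genes because this is the part of the protein that enters the protease. Each stretch has 60 bases read from the mm9 genome on the coding strand, crosses the junction of exons 2 and 3, and has the 15 bases of the loop in capitals.
Gm5483: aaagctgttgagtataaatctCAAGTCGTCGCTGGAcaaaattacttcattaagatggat
Stfa3: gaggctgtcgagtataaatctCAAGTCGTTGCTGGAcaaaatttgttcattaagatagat
Gm5416: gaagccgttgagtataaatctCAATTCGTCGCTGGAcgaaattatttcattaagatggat
Stfa1: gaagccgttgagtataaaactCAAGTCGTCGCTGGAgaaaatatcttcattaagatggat
BC100530: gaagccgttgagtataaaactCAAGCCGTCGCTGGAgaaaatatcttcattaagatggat
Stfa2: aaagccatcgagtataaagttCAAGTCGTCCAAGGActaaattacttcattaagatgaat
Stfa2l1: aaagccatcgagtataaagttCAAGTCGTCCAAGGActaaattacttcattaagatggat

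Compared base by base, the 7 genes had 5 different loop sequences. The comparison was of bases and not of protein, so loops that differ here may code for the same residues. Gm5483, the most abundant member in macrophages, had the same loop as Stfa1, which was listed at 0 there, and Stfa2l1 the same as Stfa2, so members that share a loop differed in level. Counted from 1 at the 5′ end of the stretch with Stfa3 as the reference, the loop of Gm5483 differed by T30C and that of Gm5416 by G25T and T30C. The loop of Stfa2 and Stfa2l1 had 4 differences, T30C, G31C, C32A and T33A. Over the 60 bases Gm5483 had the fewest differences from Stfa3, with 7, and Stfa2 had the most, with 15.

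Upstream sequences of 5 members were alike, with 76.6% to 84.6% identical positions in pairwise alignments of the 120 bases before the annotated start. In the same windows Gm5416 was 35.1% to 37.8% identical to each of them. However, TTTAAA began 77 bases before the start in Gm5416 and 29 to 33 bases before it in the 5 members. The Gm5416 window is therefore shifted, and its low identity does not show that its upstream sequence is unlike. Identity with the windows set by the motif was not computed. These 120 bases are shown for 6 members with an entry in the RefSeq table (GRCm38.p6 build, coding strand, TTTAAA in capitals). The motif occurs in all of them, and in Gm5416 it lies at another distance from the start.
Gm5483, chr16:36184092-36184211: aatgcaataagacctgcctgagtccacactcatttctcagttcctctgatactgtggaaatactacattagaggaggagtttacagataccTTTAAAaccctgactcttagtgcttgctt
Stfa3, chr16:36455393-36455512: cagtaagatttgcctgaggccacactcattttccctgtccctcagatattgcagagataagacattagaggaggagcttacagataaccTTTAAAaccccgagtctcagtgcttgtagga
Gm5416, chr16:36210283-36210402: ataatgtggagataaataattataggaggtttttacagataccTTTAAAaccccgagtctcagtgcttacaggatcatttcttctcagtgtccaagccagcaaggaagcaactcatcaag
Stfa2l1, chr16:36156691-36156810: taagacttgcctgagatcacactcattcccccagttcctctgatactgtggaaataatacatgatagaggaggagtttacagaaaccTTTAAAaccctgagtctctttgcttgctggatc
Stfa1, chr16:36277028-36277147: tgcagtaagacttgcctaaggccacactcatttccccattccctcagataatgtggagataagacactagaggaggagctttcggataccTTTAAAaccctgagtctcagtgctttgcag
Stfa2, chr16:36408364-36408483: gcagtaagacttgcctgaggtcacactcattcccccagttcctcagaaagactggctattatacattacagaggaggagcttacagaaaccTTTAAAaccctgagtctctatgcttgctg

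The 6 letters TTTAAA, which resemble a TATA box, occurred in 6 of 6 member promoters and in 13.2% of 27025 promoters of 300 bases, both strands searched. They began 29 to 33 bases before the start in 5 members and 77 bases before it in Gm5416. A longer run, ACCTTTAAAACCC, was shared by all 6. GAGGAGG occurred in 5 of the 6 members and 15.9% of promoters. Both of these motifs were picked after the sequences had been seen. Of the other motifs searched, TGACNNNGC, the core of the antioxidant response element that Nrf2 binds, occurred in 0 of 6 (12.5% of promoters). The NF-κB pattern GGGNNNTCC occurred in 0 of 6 (17.5% of promoters), as did a longer and stricter NF-κB pattern (1.62% of promoters). The AP-1 pattern TGANTCA was found in Stfa3 alone, 29 bases after the start (7.93% of promoters). The C/EBP pattern TTGCNNAA was found in Stfa1 and Gm5416 (10.8%), and GAGGAAG, a core of PU.1 sites, in Stfa1 and Gm5483 (13.5%). These are matches of letters in a short window only.

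Columns of the tables name the treatment without a replicate number, so libraries are numbered here by their order within a treatment. Values are FPKM (fragments scaled by transcript length and library size, which allows levels of genes of different length to be compared). Nothing in the sources says whether the 3 libraries of a macrophage group came from separate cultures, so their spread may be technical. The summed FPKM of all genes ranged from 557136 to 652486 in 7 macrophage libraries, and was 1137530 and 1132900 in LPS libraries 1 and 3. LPS library 2 stood apart from the other LPS libraries and lay near the controls. Its summed FPKM was 598270, beside 562735, 592848 and 557136 in control libraries 1, 2 and 3. Its summed stefin A level was 1.57 FPKM, beside 0.168, 1.62 and 0.525 FPKM in the same controls, so both values were closest to control library 2. Means and SDs of the 3 LPS libraries therefore mix unlike levels, and the cause was not tested. The study's methods describe 8 macrophage libraries with 2 of LPS, and the labels do not say which was left out, so values are given with all 9 libraries and without LPS library 2.

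In macrophages the stefin A transcripts went from near absence in control cells to a high level with LPS+MIC-1. The summed level was 0.168, 1.62 and 0.525 FPKM in the 3 control libraries. It was 38.5, 1.57 and 51.8 FPKM in the LPS libraries, with library 2 within the control range. It was 1050, 1556 and 984 FPKM with LPS+MIC-1, well above every other library. Mean levels were 0.772 ± 0.759 FPKM in control, 30.6 ± 26.0 with LPS and 1197 ± 313 with LPS+MIC-1 (SD, n = 3). The mean with LPS+MIC-1 was 39.1-fold that with LPS over 9 libraries and 26.5-fold without LPS library 2, where the LPS mean was 45.2 ± 9.37 FPKM (SD, n = 2). The LPS mean was 39.7-fold the control mean over 9 libraries and 58.5-fold without that library.

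Gm5483, named Cstdc4 in RefSeq, was the most abundant member in macrophages. It was at 0, 0.729 and 0.525 FPKM in control libraries and at 24.6, 0.362 and 32.0 FPKM with LPS. With LPS+MIC-1 it was at 645, 933 and 599 FPKM, on a mean of 726 ± 181 FPKM (SD, n = 3). The groups LPS+MIC-1 and LPS did not overlap, and their means differed 38.3-fold (25.7-fold without LPS library 2). Behind these levels lay 2883 to 4490 normalized counts per library with LPS+MIC-1 and at most 3.51 in a control library.

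Stfa3, the member without shared sequence words, had the same order of groups. Its levels were 0.168, 0.367 and 0 FPKM in control libraries and 6.05, 0.364 and 9.01 FPKM with LPS. They were 231, 185 and 223 FPKM with LPS+MIC-1, the smallest relative spread of the 3 abundant members (213 ± 24.3 FPKM, SD, n = 3). The mean with LPS+MIC-1 was 41.4-fold that with LPS, and 28.3-fold without LPS library 2. Control libraries held 2.56 normalized counts of Stfa3 in all, so that the LPS mean was 28.8-fold the control mean with a 95% counting interval of 8.12 to 122. It was 42.2-fold without LPS library 2, and the log2 ratio of 4.85 became 4.17 without LPS library 3 and 5.94 without control library 2.

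Gm5416, Csta3 in RefSeq, was listed at 0 FPKM in all 3 control libraries. With LPS it was at 7.38, 0.667 and 10.5 FPKM, and with LPS+MIC-1 at 172, 434 and 160 FPKM. LPS+MIC-1 library 2 was the highest of the 3 libraries for Gm5416 and Gm5483 and the lowest for Stfa3. The mean with LPS+MIC-1 was 41.2-fold that with LPS (28.5-fold without LPS library 2) and at least 222-fold higher than control, taken against a floor of 3 normalized counts per library.

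The other members stayed low. Stfa2 was at 0, 0.528 and 0 FPKM in control, 0.552, 0.175 and 0.262 FPKM with LPS, and 1.56, 1.17 and 1.15 FPKM with LPS+MIC-1, a mean 3.92-fold that with LPS. BC100530 was listed at 0 in the 6 control and LPS libraries and was at 0.873, 2.09 and 0.823 FPKM with LPS+MIC-1, at least 2.34-fold above the floor. BC117090 reached 0.226 and 0.452 FPKM in LPS+MIC-1 libraries 1 and 2 and was listed at 0 elsewhere. Stfa1 and Stfa2l1 were listed at 0 in all 9 macrophage libraries.

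**Figure D1:**
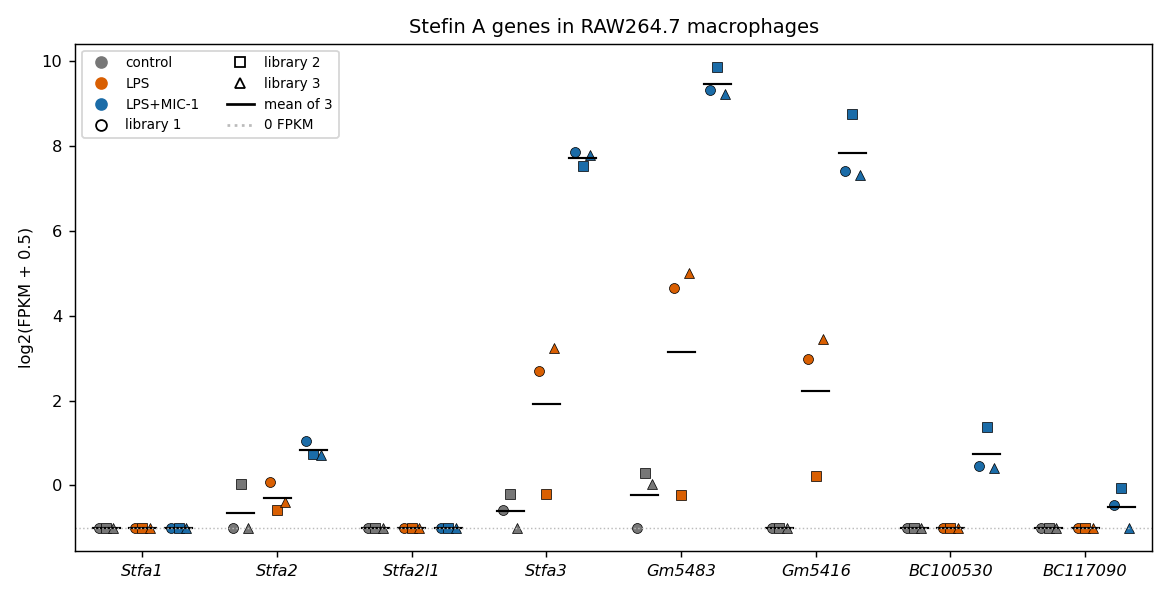
Level of each stefin A gene in the 9 macrophage libraries, as log2(FPKM + 0.5), with the group by colour, the library by symbol and the mean of 3 libraries as a bar. Stfa3, Gm5483 and Gm5416 lie highest with LPS+MIC-1, lower in LPS libraries 1 and 3 and near the dotted line of 0 FPKM in control and in LPS library 2.

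Ranges with LPS+MIC-1 lay above those with LPS for 5 of the 8 members over 9 libraries. Such a gap upward was seen for 17.9% of the 9905 genes with a mean FPKM above 1 (40.3% without LPS library 2), and since these libraries chose the members nothing is read from the count. Against control the same 5 members lay above (31.4% of genes). Between LPS and control the ranges were apart for 1 of 8 members with 9 libraries, Gm5416 (16.1% of genes), and for 3 of 8, Stfa3, Gm5483 and Gm5416, without LPS library 2 (42.2% of genes).

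The make-up of the summed level was held within a narrow range under LPS+MIC-1 for the leading gene. Gm5483 made up 60.8% ± 0.729 of it (SD, n = 3), whereas Gm5416 ranged from 16.3% to 27.9% and Stfa3 from 11.9% to 22.6%. Gm5483 was 2.80-, 5.04- and 2.69-fold Stfa3 in LPS+MIC-1 libraries 1, 2 and 3, and 4.06- and 3.55-fold Stfa3 in LPS libraries 1 and 3. Ratios of Gm5416 to Stfa3 were 0.744, 2.34 and 0.720 with LPS+MIC-1 and 1.22 and 1.17 in the same LPS libraries. For both ratios the values of these LPS libraries lay within the range of the LPS+MIC-1 libraries.

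In liver the genes were scarce, and another member, Stfa2l1, had the highest level with LPS. Over the 9 liver libraries the 8 genes together held 126 normalized counts, against 15984 in macrophages. Summed levels were 0, 1.34 and 0 FPKM in control livers, 12.6, 6.64 and 13.4 FPKM with LPS and 2.99, 7.48 and 3.03 FPKM with LPS+MIC-1. All LPS livers lay above all control livers, whereas LPS+MIC-1 library 2 lay above LPS library 2. Means were 0.445 ± 0.771, 10.9 ± 3.68 and 4.498 ± 2.58 FPKM (SD, n = 3), so that LPS was 24.4-fold control and LPS+MIC-1 was 0.414-fold LPS.

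Of the 8 members, Stfa2l1 and Gm5483 passed the filter of a mean FPKM above 1 over the liver libraries. Both passed through the LPS livers and so had to differ from control, and their tests of LPS against control are given as a description that supports no call, beside the adjusted p of a fit to all 21441 genes without the filter. Gm5483 owed its pass to the LPS livers, with means of 0, 2.71 and 0.694 FPKM in control, LPS and LPS+MIC-1. That also favoured a lower level with LPS+MIC-1 than with LPS, so this comparison of Gm5483 supports no call either. Stfa2l1, listed at 0 throughout in macrophages, was the most abundant member in liver. Stfa2, with which it may share reads, is given below. Stfa2l1 was at 0, 0.665 and 0 FPKM in control livers, 8.20, 2.68 and 5.30 FPKM with LPS and 1.63, 3.80 and 1.15 FPKM with LPS+MIC-1. Livers with LPS and control did not overlap, and the Log2FC on the log2(FPKM + 0.5) scale was 3.04 ± 0.52 (SE, adjusted p = 0.00543 by limma, and 0.0202 without the filter). Means differed 24.3-fold, with a 95% counting interval of 6.02 to 196. Between LPS+MIC-1 and LPS the ranges overlapped, with a Log2FC of -1.14 ± 0.52 (SE, adjusted p = 0.997 by limma). LPS+MIC-1 livers lay above control livers, with a Log2FC of 1.90 ± 0.52 (SE, adjusted p = 0.0234 by limma). That call did not hold under rescaling of all libraries to the same FPKM sum (adjusted p = 0.0518), without the filter on low values (adjusted p = 0.0685) or without any of 4 single libraries (control 1, control 3, LPS+MIC-1 1 and LPS+MIC-1 2, adjusted p = 0.0546 to 0.0766).

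Gm5483, the leader in macrophages, ranked next to Stfa2l1 in liver with LPS. It was listed at 0 in the 3 control livers, stood at 1.74, 2.35 and 4.04 FPKM with LPS, and at 0.815, 1.27 and 0 FPKM with LPS+MIC-1. The groups did not overlap in the first comparison, where the Log2FC was 2.62 ± 0.49 (SE, adjusted p = 0.00698 by limma, and 0.0204 without the filter) and the LPS mean was at least 2.52-fold higher than control against the floor of 3 normalized counts. The LPS+MIC-1 livers all lay below the LPS livers, with a mean 0.256-fold as high and a Log2FC of -1.55 ± 0.49 (SE, unadjusted p = 0.0127 and adjusted p = 0.997 by limma). For single genes the exact permutation test of 3 against 3 libraries cannot go below p = 0.1, the two-sided value reached by Gm5483 in this comparison. Against control, LPS+MIC-1 livers had a Log2FC of 1.07 ± 0.49 (SE, adjusted p = 0.117 by limma), which crossed the threshold only without LPS+MIC-1 library 3 (Log2FC 1.61, adjusted p = 0.0317).

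Of the 10147 genes tested in liver, 13.4% were called higher with LPS than in control, 13.8% higher with LPS+MIC-1 than in control, and 0% in either direction between LPS+MIC-1 and LPS. With LPS against control 1356 genes were called higher and 1137 lower, and after rescaling of all libraries to the same FPKM sum 796 were called higher and 1918 lower of 10257. For LPS+MIC-1 against control these numbers were 1396 and 1164, and 532 and 2661 after rescaling. Between LPS+MIC-1 and LPS, limma gave 100 liver genes at an unadjusted p below 0.05 and a Log2FC beyond 1. Gm5483 was among the 58 that were lower (0.572% of tested genes), a place that the filter favoured and that is no support.

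Group means of the other members were at or below the level that 3 normalized counts give in a liver library, which is about 1 FPKM for most of them and 1.98 FPKM for Gm5416. Gm5416 was listed at 0 in control livers, at 1.40, 0.614 and 1.86 FPKM with LPS and at 0, 1.15 and 1.05 FPKM with LPS+MIC-1. Stfa1 was listed at 0 in control livers and reached 1.24 FPKM in LPS library 3 and 0.937 FPKM in LPS+MIC-1 library 2. Stfa2 was likewise at 0 in control livers and at most 0.830 FPKM elsewhere. Stfa3, a main contributor in macrophages, did not exceed 0.752 FPKM in any liver and was at 0.671 FPKM in control library 2. BC100530 was seen in LPS library 3 alone, at 0.219 FPKM, and BC117090 was listed at 0 in every liver. Ranges with LPS lay above control for 5 of the 8 members (24.2% of tested genes). Of these 5, Stfa1, Stfa2 and Gm5416 did not pass the filter over which the share was taken. Stfa2l1 and Gm5483 passed it through the LPS livers, so nothing is read from the count. Ranges with LPS+MIC-1 lay above control for 1 member, Stfa2l1 (30.5%), and below LPS for 1 member, Gm5483 (4.64%).

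**Figure D2:**
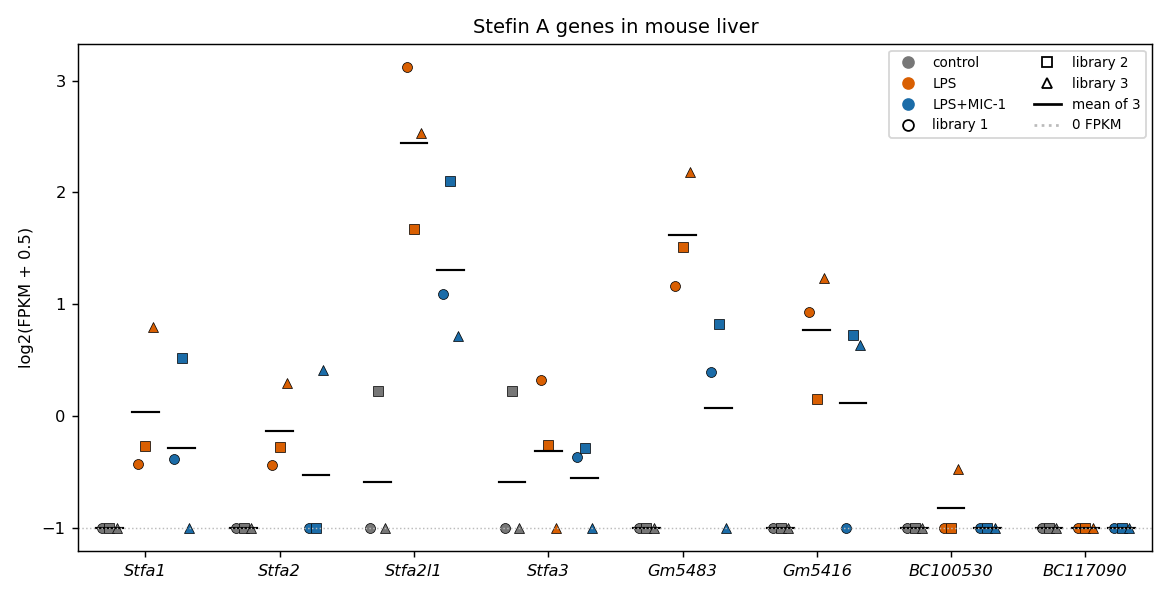
Level of each stefin A gene in the 9 liver libraries, as log2(FPKM + 0.5), with the group by colour, the library by symbol and the mean of 3 libraries as a bar. Stfa2l1 and Gm5483 lie highest in the LPS livers, and their LPS+MIC-1 means lie between the LPS and the control means, while single LPS+MIC-1 livers overlap with LPS livers for Stfa2l1 and with control livers for Gm5483.

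The 2 tables were scaled separately, so that levels are not compared between them, but shares of the summed level can be set side by side. In macrophages with LPS+MIC-1, Gm5483, Gm5416 and Stfa3 made up nearly all of it and Stfa2l1 0%. In livers with LPS, Stfa2l1 made up 48.4% ± 14.5, Gm5483 26.5% ± 11.2, Gm5416 11.4% ± 2.33 and Stfa3 3.69% ± 3.23 (SD, n = 3). With LPS+MIC-1 the liver share of Stfa2l1 was 47.7% ± 8.81 (SD, n = 3), and those of the other members rested on few counts, with Gm5483 between 0% and 27.3%.

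**Figure D3:**
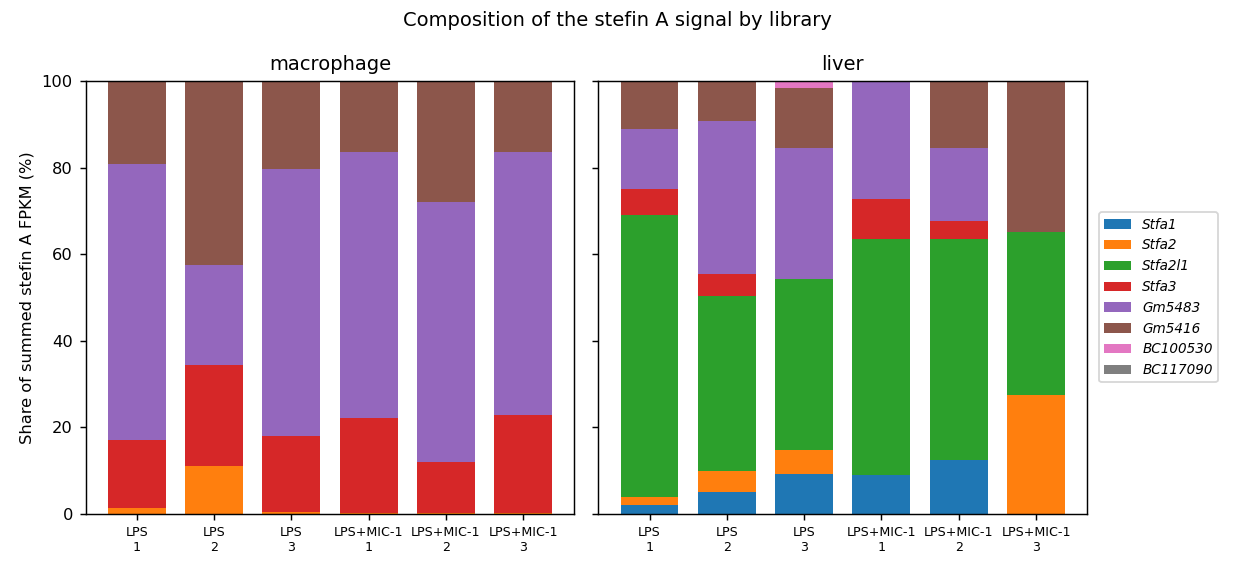
Share of each member in the summed stefin A FPKM of every LPS and LPS+MIC-1 library, in percent, with macrophages on the left and liver on the right. Gm5483 takes the largest part in macrophages apart from LPS library 2, and Stfa2l1 does so in liver, where single libraries rest on 7.21 to 35.4 normalized counts.

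Position along the chromosome did not order the levels. Gm5483 and Gm5416 are neighbours on the plus strand near one end of the stretch and Stfa3 closes the other end on the minus strand, with Stfa1, BC100530 and Stfa2, all low in macrophages, between them. Stfa2l1 lies next to Gm5483 and was listed at 0 in macrophages.

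**Figure D4:**
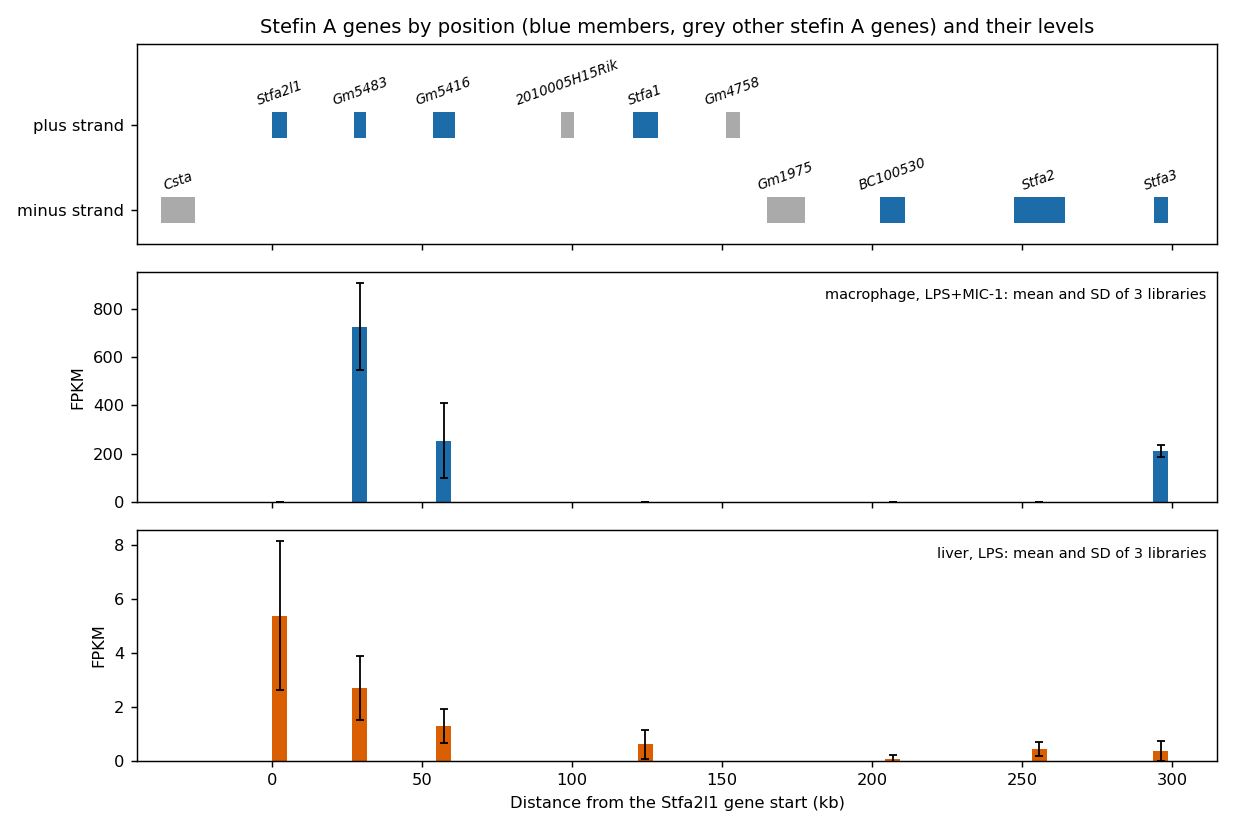
Gene models of the stefin A stretch by distance in kb from the start of Stfa2l1 (members blue, other stefin A genes grey), above bars of mean FPKM with SD over 3 libraries for macrophages with LPS+MIC-1 and for liver with LPS. The tall macrophage bars belong to Gm5483, Gm5416 and Stfa3, while the liver bars fall from Stfa2l1 to Gm5483 and Gm5416.

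Other cystatins and a list of proteases that cystatins bind, the cysteine cathepsins and legumain, were set beside the cluster. Cstb, the stefin B gene and the other intracellular inhibitor of cathepsins, was at 444, 607 and 457 FPKM in control, 2449, 590.2 and 2617 FPKM with LPS and 995, 1238 and 972 FPKM with LPS+MIC-1. It was thus highest in LPS libraries 1 and 3, where the stefin A genes were between the other groups. Without LPS library 2 its Log2FC was 2.35 ± 0.16 for LPS against control and -1.25 ± 0.16 for LPS+MIC-1 against LPS (SE, adjusted p = 7.61e-06 and 0.000255 by limma), and with all 9 libraries neither passed (adjusted p = 0.0777 and 0.458). After rescaling of the 8 libraries to the same FPKM sum the second difference was -0.45. Cst3, the secreted cystatin C, fell with LPS+MIC-1 compared with LPS, with a Log2FC of -1.55 over 9 libraries (adjusted p = 0.00408 by limma) and of -1.05 after rescaling of the same 9 libraries (adjusted p = 0.000602 by limma). Csta, a neighbour of the cluster, was at most 0.0194 FPKM in macrophages and 0.0963 FPKM in liver.

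Of the 19 other cystatin family genes in the table, 3 were tested in macrophages, and with LPS+MIC-1 against LPS 0 were called higher and 1 lower (2 lower without LPS library 2). Their median Log2FC was -0.73 (-1.25 without that library), beside -0.01 (0.01) for all genes tested. In liver 8 were tested, and Cstb and Cst3 were called higher with LPS than in control. Cstb rose by a Log2FC of 2.63 ± 0.43 (SE, adjusted p = 0.00459 by limma) and Cst3 by 1.09 ± 0.31 (SE, adjusted p = 0.0295 by limma), and 0 of the 8 were called between LPS+MIC-1 and LPS. After rescaling Cst3 did not pass (Log2FC 0.72). The median of the 8 for LPS against control was 0.45, beside 0.15 for all genes.

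Several of the listed cathepsins, and legumain, were abundant in macrophages. Ctsb, cathepsin B, was at 892 to 918 FPKM in control, 3164, 907 and 3159 FPKM with LPS and 722 to 861 FPKM with LPS+MIC-1. Ctsl, cathepsin L, rose without LPS library 2 by a Log2FC of 3.28 ± 0.14 with LPS and fell by 1.52 on the log2 scale with LPS+MIC-1 compared with LPS (adjusted p = 1.38e-06 and 4.51e-05 by limma), where rescaled values gave differences of 2.28 and -0.72. Ctss, cathepsin S, an enzyme of antigen processing, fell with LPS+MIC-1 compared with LPS, with a Log2FC of -2.19 over 9 libraries (adjusted p = 0.00361 by limma). So did Lgmn, legumain, at -2.08 (adjusted p = 0.00366 by limma) and Ctsf at -1.48 (adjusted p = 0.00566 by limma). After rescaling Ctss and Lgmn still passed (Log2FC -1.69 and -1.59), and Ctsf did not (adjusted p = 0.133). Ctsh was below 1 FPKM in every macrophage library.

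Of the 9 cathepsin and legumain genes tested, 0 were called higher and 3 lower with LPS+MIC-1 than with LPS over 9 libraries, beside 2.06% of all genes higher and 1.81% lower. Over all genes these were 204 higher and 179 lower of 9905, and after rescaling 300 higher and 49 lower of 9964, with 0 proteases higher and 2 lower. Without LPS library 2, 1 was called higher, Ctsc, and 6 lower, beside 11.3% and 12% of all genes. The median Log2FC was -1.17 over 9 libraries and -1.52 without that library. With LPS against control, limma called 0 of the 9905 macrophage genes over 9 libraries (1901 at an unadjusted p below 0.05 and a Log2FC beyond 1). Without LPS library 2 it called 6 of the 9 proteases higher and 1, Ctsc, lower (16.3% and 17.9% of all genes).

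In liver 5 of the 9 tested proteases, Ctsl, Lgmn, Ctss, Ctsz and Ctsc, were called higher with LPS than in control (4 after rescaling, without Ctsc), and 0 were called between LPS+MIC-1 and LPS. The Log2FC of Ctsl was 2.43 ± 0.48 with LPS against control and 0.00 ± 0.48 with LPS+MIC-1 against LPS (SE, adjusted p = 0.00846 and 1 by limma). Ctss was at 28.7, 27.1 and 39.7 FPKM with LPS and 28.3, 25.6 and 30.9 FPKM with LPS+MIC-1. The median protease Log2FC between these groups was 0.05, beside -0.01 for all genes.

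By the profile over all 9 libraries, the macrophage genes most like the summed stefin A level were Cxcl3, S100a8, Serpinb2, Csf3 and Lcn2. The root mean square difference between their centred log2(FPKM + 0.5) profiles and that of the cluster was 0.739 for Cxcl3, a neutrophil-attracting chemokine, 0.874 for S100a8, a calcium-binding protein of myeloid cells, and 0.969 for Serpinb2, an inhibitor of plasminogen activators. It was 1.14 for Csf3, the granulocyte growth factor, and 1.43 for Lcn2, an iron-siderophore binder, beside a median of 4.35 over 9902 genes. The same 5 genes came first without LPS library 2. Cxcl3 was at 20.6, 0.212 and 20.9 FPKM with LPS and 509, 201 and 514 FPKM with LPS+MIC-1. The liver genes most like the cluster were Ankrd2 (0.485), Npy (0.488), 6030498E09Rik (0.526), Mt3 (0.530) and Ms4a4c (0.543), over 10145 genes with a median of 1.72. Likeness was taken over 9 libraries of 3 groups and is a description.

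Because stefin A genes are known from neutrophils, markers of that cell type were set beside them. In macrophages Ltf was listed at 0 in all 9 libraries, Ngp, Mpo and Elane did not exceed 0.132 FPKM, and Camp did not exceed 0.957 FPKM, while Ly6g was not analysed. S100a9 was at most 0.482 FPKM while its partner S100a8 was at 651, 676 and 718 FPKM with LPS+MIC-1. Of the 15 neutrophil marker genes listed, 5 were tested, and 2, Mmp8 and S100a8, were called higher with LPS+MIC-1 than with LPS (2.06% of all genes). Mmp8, with means of 0.114, 1.18 and 30.8 FPKM in control, LPS and LPS+MIC-1, passed the filter through the LPS+MIC-1 libraries, which favoured its call. The summed level of the 15 genes was 15.03 to 55.3 FPKM in control, 56.3 to 1924 FPKM with LPS and 3521 to 4291 FPKM with LPS+MIC-1. Lcn2 took most of it with LPS+MIC-1 and in LPS libraries 1 and 3, but in control it was at 5.56, 23.4 and 7.67 FPKM, beside 5.91, 26.0 and 5.92 FPKM of Mmp9. The 4 macrophage marker genes summed to 9411 to 11360 FPKM in all 9 libraries, of which the lysozyme gene Lyz2 gave 8726 to 10746 FPKM. The others moved apart, with means in control and with LPS+MIC-1 of 416 and 189 FPKM for Csf1r, 71.4 and 334 FPKM for Itgam, and 39.1 and 168 FPKM for Emr1. Kupffer cell markers summed to at most 0.0786 FPKM, T and B cell markers to at most 0.140 FPKM and hepatocyte markers to at most 12.6 FPKM in macrophages.

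In liver, 11 neutrophil markers were tested, and 10 were called higher (9 after rescaling) and 1, Cxcr2, lower with LPS than in control. Over all 10147 genes 1356 were called higher (13.4%) and 1137 lower. Camp, Elane, Mmp8, Mmp9, Ngp, Retnlg and S100a9 had control means below 1 FPKM. They passed the filter through the livers with LPS, which favoured a higher level than in control. The summed level was 75.3 to 2092 FPKM in control, 18649 to 30013 FPKM with LPS and 23865 to 29887 FPKM with LPS+MIC-1. Lcn2 gave nearly all of it in the LPS and LPS+MIC-1 livers, and in control it was at 405, 2037 and 35.5 FPKM, the last beside 36.2 FPKM of Cxcr2. The granule protein gene Ngp was at 1.18, 0.514 and 0 FPKM in control, 54.5, 6.62 and 49.7 FPKM with LPS and 9.46, 19.9 and 8.98 FPKM with LPS+MIC-1. Camp, the cathelicidin gene, was at 7.43, 1.76 and 7.85 FPKM with LPS and 1.57, 7.05 and 0.830 FPKM with LPS+MIC-1, so that, as for the stefin A sum, library 2 was the lowest of the LPS livers and the highest of the LPS+MIC-1 livers. This order was seen in 8 of the 15 neutrophil genes. Its share over all liver genes was not computed, so nothing is read from the count. The reverse order was seen in 1, Prtn3, at 3.67, 24.9 and 4.87 FPKM with LPS and 11.1, 7.08 and 12.1 FPKM with LPS+MIC-1, and the other 6 had neither. Retnlg was at 26.6, 20.99 and 34.2 FPKM with LPS and 11.1, 23.7 and 12.3 FPKM with LPS+MIC-1. Between LPS+MIC-1 and LPS 0 of the 11 markers were called, with 9 lower and a median Log2FC of -0.49. In whole liver a smaller number of cells of a type and less RNA per cell cannot be told apart, and the part of such cells in the stefin A values was not tested.

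The other marker lists of the liver moved less evenly. Hepatocyte markers, 4 genes of which 0 were called, summed to 39839 to 78578 FPKM in control, 33481 to 44787 FPKM with LPS and 33923 to 42970 FPKM with LPS+MIC-1. Of 4 Kupffer cell markers 1, Marco, was called higher and 2 lower with LPS than in control, with summed levels of 24.2 to 43.0 FPKM in control and 32.7 to 46.6 FPKM with LPS. Of 3 tested macrophage markers 1 was called higher. T and B cell markers summed to at most 1.28 FPKM in any liver.

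**Figure D5:**
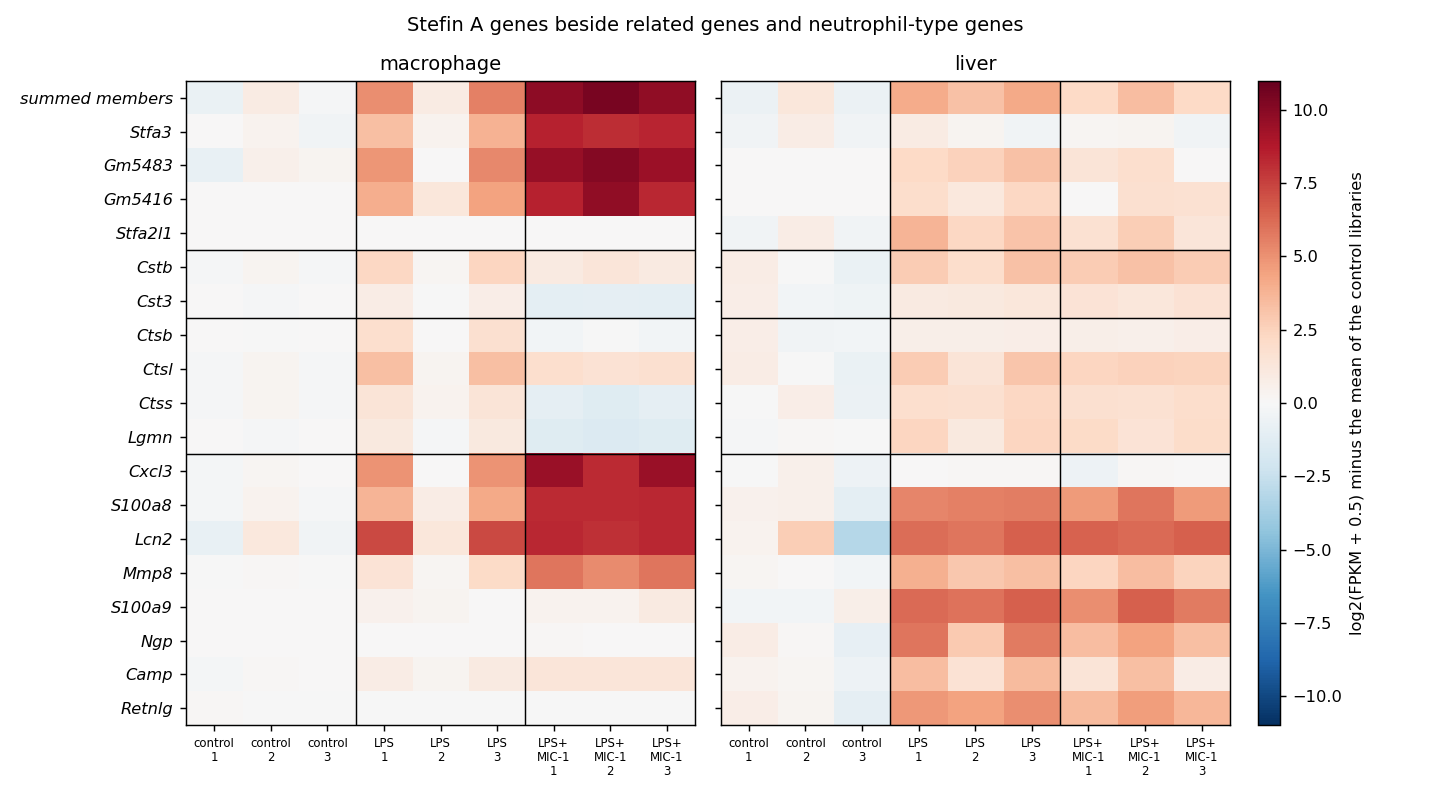
Stefin A genes, other cystatins, proteases, and myeloid and neutrophil-type genes in the 9 macrophage libraries (left) and the 9 liver libraries (right), each as log2(FPKM + 0.5) minus the mean of the control libraries of that table. In macrophages the stefin A sum, Cxcl3, S100a8 and Lcn2 are highest with LPS+MIC-1 while Ctsb and Ctss are not. In liver the stefin A sum, Ngp and Camp are lower in LPS+MIC-1 libraries 1 and 3 than in LPS libraries 1 and 3. All of them are higher in LPS+MIC-1 library 2 than in LPS library 2. Library numbers follow column order and do not pair livers.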

How the data were processed

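The values came from 18 RNA-seq libraries, with 3 control, 3 LPS and 3 LPS+MIC-1 libraries for each of RAW264.7 cells and liver. Per the study's methods and the submitters' processing notes, the authors pseudoaligned reads to RefSeq transcripts of mm9 with kallisto 0.45.0, summed them per gene with tximport and computed the deposited FPKM values with DESeq2 1.20.0, scaled by size factors. The authors' mean normalized count over the 9 libraries of a table, a signal deposited with their comparisons, was divided by the mean FPKM of each gene to obtain normalized counts per FPKM, and with it the count behind each value. Fold changes and p-values deposited in those comparisons were not used. Reads per library are not given in the sources used here. All columns matched a group by name.

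Members, lists and motifs were chosen with earlier results of these data known. Genes with a mean FPKM above 1 were tested on log2(FPKM + 0.5) with limma 3.58.1 (lmFit, contrasts and eBayes with trend), each table alone with its 3 groups in 1 fit and Benjamini-Hochberg adjustment over all tested genes. Calls needed an absolute Log2FC above 1 and an adjusted p below 0.01 in macrophages or below 0.05 in liver. Members were not tested in macrophages. Folds are ratios of mean FPKM. A group listed at 0 was replaced by a floor of 3 normalized counts per library, and groups of 1 to 3 counts have an exact 95% interval. Intervals and floors cover counting error only. In simulated data 200 genes were changed by 2 on the log2 scale, up or down, for LPS against control. The fit called 93% of them among 9905 macrophage genes and 74.5% among 10147 liver genes. It also called 2 unchanged genes in macrophages and 10 in liver. Smaller changes were not simulated. Of the changed genes 0 were called in the wrong direction. The macrophage percentage does not carry over to the fit that keeps LPS library 2. For this comparison that fit called 0 genes in the macrophage data, against 3386 without LPS library 2. Named genes are all members, the listed cystatin, protease and marker genes that were called or define a cell type, fixed family genes (Cstb, Csta, Ctsb, Ctsl, Ctss and Ctsh) and the 5 genes most like the sum in each table. Retnlg, S100a9, Camp, Prtn3 and the macrophage markers were chosen as examples after their values were seen. Gene models and coding sequences were from GENCODE M1 (mm9), and promoters from RefSeq (GRCm38.p6, 250 bases before to 50 after the start). Alternatives in pseudocount, filter, scaling, threshold and libraries are described in the closing section. R 4.3.3, Python 3.11.15, numpy 2.4.6 and pandas 2.3.3 were used.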

Additional observations from a re-analysis of the deposited data

Results flagged for a closer look

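LPS+MIC-1 against LPS went in opposite directions in the 2 tables. In macrophages all 3 LPS+MIC-1 libraries lay above the LPS mean of the summed stefin A genes, with a log2 ratio of means of 5.29, and in liver all 3 lay below it, with a log2 ratio of -1.27. For Gm5483 alone the log2 ratios were 5.26 in macrophages and -1.96 in liver. The tables were scaled separately and the difference between them was not tested. The macrophage value is among those that chose the cluster, and the dose and route of MIC-1 differ between the cultures and the mice. No treatment time is recorded for the sequenced cultures.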

How the results depend on the processing

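In all, 288 values were recomputed under an alternative. None of the Log2FC values and log2 ratios reversed direction, and counts of calls have no direction to reverse. Of the counts of calls and the summed levels, 113 stayed the same and 23 moved beyond a set limit. Of the single-gene values, 136 stayed the same, 8 moved, 6 lost a call and 2 gained one. LPS against control in liver had 2 called members under every alternative tried, which is no support, since both passed the filter through the LPS livers. With LPS+MIC-1 against LPS in liver 0 members were called, and 1, Gm5483, at an unadjusted p below 0.05. This is no support either, since Gm5483 passed the filter through the LPS livers. With LPS+MIC-1 against control in liver 1 member, Stfa2l1, was called, and 0 were called without the filter on low values or with FPKM rescaled to the same sum (cause not tested), and 0 to 2 without single libraries. The macrophage log2 ratio of summed means for LPS+MIC-1 against control was 10.60 and ranged from 10.12 to 11.75 without single libraries, the highest without control library 2. For LPS+MIC-1 against LPS it ranged from 4.73 (without LPS library 2) to 5.90 (without LPS library 3) and for LPS against control from 4.70 (without LPS library 3) to 6.47 (without control library 2), and in liver the 3 log2 ratios kept their direction, at 4.02 to 4.87 for LPS against control, -1.85 to -1.05 for LPS+MIC-1 against LPS and 2.75 to 3.56 for LPS+MIC-1 against control. Without liver control library 2 the control sum was 0 and gave no ratio. Rescaling was tried for the lists after the data had been seen. It moved the median Log2FC of all genes to -0.66, 0.45 and -0.22 in macrophages and to -0.19, -0.26 and -0.45 in liver (LPS against control, LPS+MIC-1 against LPS and LPS+MIC-1 against control). The log2 ratio of the summed members for LPS+MIC-1 against LPS was then 6.07 in macrophages and -1.55 in liver.

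For the lists, LPS library 2 was the only library left out. Without it, macrophage cystatin calls went from 0 to 1, 1 to 2 and 0 to 2, and protease calls from 0 to 7, 3 to 7 and 1 to 4 (same order of comparisons). Calls over all macrophage genes went from 0 to 3386, 383 to 2310 and 554 to 1560. Without the filter, 0 cystatins and 0 proteases were called in macrophages for LPS+MIC-1 against LPS, and 1 cystatin in liver for LPS against control. After rescaling, 1 cystatin and 2 proteases were called in macrophages for LPS+MIC-1 against control. In liver 1 cystatin was then called for LPS against control and 1 cystatin and 3 proteases for LPS+MIC-1 against control, beside 2 cystatins and 6 proteases as deposited. Between LPS+MIC-1 and LPS in liver, limma called 35 genes without LPS library 2 and at most 1 under the other pseudocounts, filter and scaling. Where a control library was left out, the remaining 2 share the spread of the other groups.

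No paired analysis was possible because the columns carry no replicate number. Liver values of single members rest on few reads, at 2.80 normalized counts per FPKM for Gm5483 and 1.52 for Gm5416, so differences between low members are not detectable at this depth.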
